A study of Homo sapiens with 6 samples.

Results

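CCNB1, CCNB2, BIRC5, KIF20A and NUSAP1 encode 2 B-type cyclins and 3 proteins of the mitotic spindle and midzone. They were chosen by name as genes of the G2 phase and mitosis, and they are 5 of the 1944 genes in the deposited gene table. Of these, 4 genes also have 9 of the 4903 sites in the deposited polyadenylation site table, and CCNB2 has none among those analysed here. The RNA came from LNCaP, a line of human prostate cancer cells that respond to androgen, grown in serum and sampled after 48 h of RNA interference. Cells in all groups were transfected 2 times with 50 nM small interfering RNA (siRNA): a scrambled sequence in the siCTRL group, an siRNA to Sam68 (gene KHDRBS1, an RNA-binding protein) in siSAM68, and an siRNA to XRN2 (a nuclear exonuclease of transcription termination) in siXRN2. Each of the 3 groups had 2 biological replicates, which gave 6 libraries. The method, 3'READS, sequences the ends of polyadenylated RNA, so that a read counts a transcript end whatever the length of the transcript and also places the polyadenylation site. The study asks how Sam68 and XRN2 bear on polyadenylation site choice and on cell cycle progression.

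Cyclin B1 and cyclin B2 bind the kinase CDK1, and the active complex drives cells from G2 into mitosis until the cyclins are degraded at anaphase. BIRC5, or survivin, is a subunit of the chromosomal passenger complex, which brings Aurora B kinase to centromeres and later to the spindle midzone. KIF20A is a kinesin that takes this complex to the midzone, and NUSAP1 binds and bundles spindle microtubules around chromosomes. The mRNAs of such genes are low in G1 and peak in G2 and mitosis, and their promoters are known for CCAAT boxes, bound by the factor NF-Y, and for a cell cycle homology element with the core TTTGAA, bound by the DREAM and MuvB complexes.

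The promoters of these genes are shown because the genes are known to be driven together through them. RefSeq (GRCh38.p14) gave a window from 250 bases before to 50 bases after the start for CCNB1, CCNB2, KIF20A and NUSAP1, 4 of the 5 genes; BIRC5 was not matched. All 4 lie on the plus strand, at chr5:69166900-69167199 for CCNB1, chr15:59104896-59105195 for CCNB2, chr5:138178862-138179161 for KIF20A and chr15:41332631-41332930 for NUSAP1. Each is written 5' to 3', with CCAAT, or ATTGG where it lies on the other strand, and TTTGAA, searched on both strands, in capitals.
CCNB1: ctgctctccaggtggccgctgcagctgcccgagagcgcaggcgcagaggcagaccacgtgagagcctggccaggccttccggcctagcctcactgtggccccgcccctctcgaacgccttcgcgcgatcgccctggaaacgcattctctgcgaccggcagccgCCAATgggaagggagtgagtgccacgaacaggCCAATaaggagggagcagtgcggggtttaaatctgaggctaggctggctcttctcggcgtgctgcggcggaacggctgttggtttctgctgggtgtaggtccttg
CCNB2: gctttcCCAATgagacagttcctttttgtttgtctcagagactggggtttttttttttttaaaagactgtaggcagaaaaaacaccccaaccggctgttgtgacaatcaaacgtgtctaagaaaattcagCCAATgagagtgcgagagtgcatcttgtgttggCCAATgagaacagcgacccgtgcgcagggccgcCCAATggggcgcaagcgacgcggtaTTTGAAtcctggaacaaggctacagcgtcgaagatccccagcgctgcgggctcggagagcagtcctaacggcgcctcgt
KIF20A: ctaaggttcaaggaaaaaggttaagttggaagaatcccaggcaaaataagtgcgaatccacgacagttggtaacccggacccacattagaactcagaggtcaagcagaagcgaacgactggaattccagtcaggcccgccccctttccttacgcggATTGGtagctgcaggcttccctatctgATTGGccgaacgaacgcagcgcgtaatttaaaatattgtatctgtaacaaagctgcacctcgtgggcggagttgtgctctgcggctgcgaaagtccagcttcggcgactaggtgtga
NUSAP1: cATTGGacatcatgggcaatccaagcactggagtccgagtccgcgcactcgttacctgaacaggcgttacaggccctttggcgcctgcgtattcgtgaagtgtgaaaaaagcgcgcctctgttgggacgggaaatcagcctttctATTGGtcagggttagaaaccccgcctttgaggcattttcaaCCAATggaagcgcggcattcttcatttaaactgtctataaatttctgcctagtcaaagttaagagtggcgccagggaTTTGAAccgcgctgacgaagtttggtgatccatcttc
CCAAT was found 2 times in the CCNB1 window, at -87 and -55 from the start, 4 times in that of CCNB2, 2 times in that of KIF20A and 3 times in that of NUSAP1. Of 34943 RefSeq promoter windows of the same length, 10.8% held CCAAT at least 2 times and 3.26% at least 3 times. TTTGAA was found in the CCNB2 window at -29 and in the NUSAP1 window at +14, against 15.2% of all windows with at least 1 copy. No other sequence was searched for this element. The lack of a match in the CCNB1 and KIF20A windows therefore covers TTTGAA alone. The matches of CCAAT and TTTGAA do not overlap in these windows. The cyclin B promoters both hold CCAAT at -87 and again at -55 in CCNB1 and -54 in CCNB2.

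The siCTRL libraries held 244708 and 447363 reads in listed genes, those of siSAM68 674072 and 788203, and those of siXRN2 597911 and 1599559, so the control libraries were the shallowest; the part of depth in the results was not tested. Expression is given as RPM, the reads of a gene scaled to sequencing depth, here rescaled so that the libraries of a group are at the same listed total. KHDRBS1 stood at 601 and 741 RPM in siCTRL, 53.8 and 27.5 RPM in siSAM68, and 895 and 567 RPM in siXRN2, a log2 change of -4.08 after siSAM68 (SE 0.28; limma adjusted p = 7.88e-07). XRN2 is not among the genes analysed here, so its silencing could not be checked. Of 8 LNCaP markers, 5 were listed (KLK2, KLK3, ACPP, TMPRSS2 and FOLH1) and summed to between 859 and 1921 RPM per library. None of the 8 markers of stromal, endothelial and immune cells is among the listed genes. The tables hold part of the genes of these cells, by a rule that is not stated, so a share of all genes or all sites is a share of these lists.

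After Sam68 silencing 4 of the 5 genes rose: CCNB1, KIF20A, NUSAP1 and BIRC5, by 1.74 to 2.68 times in mean RPM. CCNB2 did not pass the test. After XRN2 silencing CCNB1 and NUSAP1 rose and CCNB2 fell, while BIRC5 and KIF20A had higher values that missed the threshold (limma, Benjamini-Hochberg adjusted p of 0.05 over all 1938 genes tested). Of all genes tested, 58.8% were called after siSAM68 (35.3% higher, 23.4% lower) and 33.3% after siXRN2 (21.2% higher, 12.1% lower). The median log2 change of the 5 genes was 0.82 after siSAM68, against 0.16 over all genes, and 0.58 after siXRN2, against 0.08. The 5 genes were chosen with earlier results of these data known. Setting them against all genes, here and in the counts that follow, is therefore a description and not a test. In siSAM68, 4 of the 5 genes lay above both control libraries and none below, where 44.8% of all genes lay above and 34.9% below. In siXRN2, 4 lay above and 1, CCNB2, below, against 37.6% and 28.1% of all genes. In a bulk culture, more cells in G2 or mitosis and more RNA per cell cannot be told apart.

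**Figure D1:**
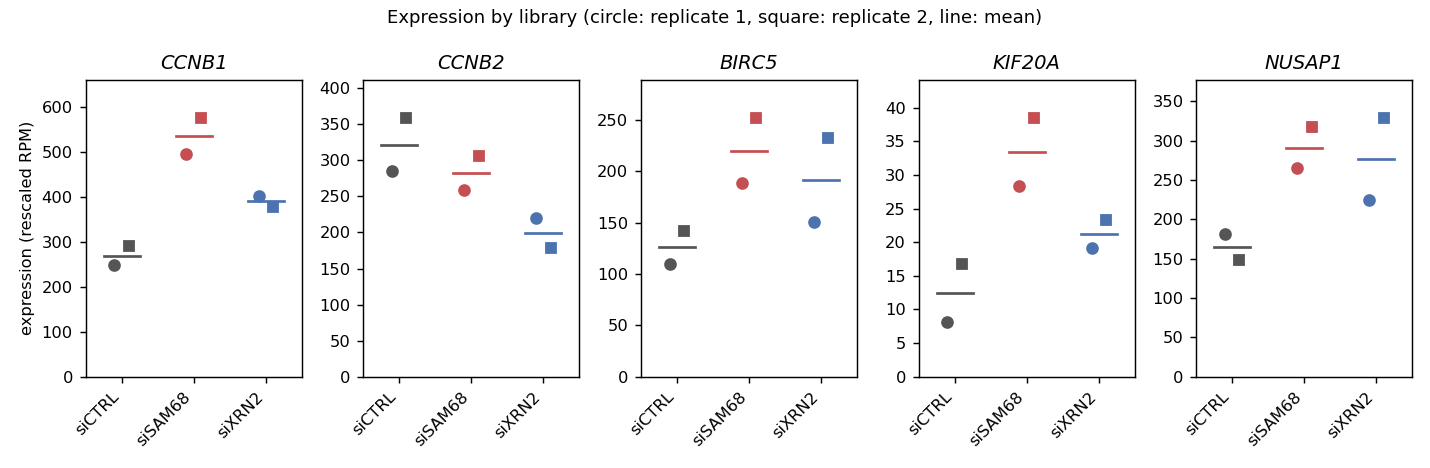
Expression of the 5 genes in each library, in rescaled RPM on linear axes that start at 0; circles are replicate 1, squares replicate 2 and lines group means. CCNB1, BIRC5, KIF20A and NUSAP1 lie above both siCTRL libraries in every knockdown library, while the siXRN2 libraries of CCNB2 lie below both siCTRL libraries.

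Cyclin B1 was the most abundant of the 5 by its mean over the 6 libraries, at rank 206 of 1944 genes. CCNB1 (gene ID 891) stood at 249 and 291 RPM in siCTRL (179 and 382 reads), 497 and 575 RPM in siSAM68 and 404 and 377 RPM in siXRN2. Every siSAM68 library lay above every siXRN2 library, and these above both controls, with no overlap. The group means were 270 ± 29.5 RPM (SD, n = 2) in siCTRL, 536 ± 55.2 RPM in siSAM68 and 390 ± 18.7 RPM in siXRN2. The log2 change was 0.99 after siSAM68 (SE 0.18, 95% interval 0.61 to 1.37, limma adjusted p = 0.00245) and 0.54 after siXRN2 (SE 0.18, 0.15 to 0.92, limma adjusted p = 0.0356). The call after siSAM68 held whichever library was left out, and it was 0.83 on the log2 scale with median-of-ratios scaling. The call after siXRN2 was lost with that scaling (0.45, limma adjusted p = 0.0661) and with the compared groups fitted alone (limma adjusted p = 0.0772). It was also lost when any 1 of the siCTRL or siSAM68 libraries was left out, which left 2 of 6 such fits with the call.

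Cyclin B2 went another way. CCNB2 (gene ID 9133) stood at 285 and 358 RPM in siCTRL (205 and 471 reads), 258 and 306 RPM in siSAM68 and 221 and 179 RPM in siXRN2. The siSAM68 libraries overlapped the controls, while both siXRN2 libraries were below all others. The means were 322 ± 51.7, 282 ± 33.5 and 200 ± 29.3 RPM (SD, n = 2). CCNB2 fell after siXRN2, with a log2 change of -0.68 (SE 0.20, 95% interval -1.11 to -0.26, limma adjusted p = 0.0209). After siSAM68 the log2 difference was -0.18, with an interval of -0.61 to 0.24 (limma adjusted p = 0.451). The fall after siXRN2 passed in 5 of 6 fits that left out a library and missed the threshold without siCTRL replicate 2 (-0.52, limma adjusted p = 0.123).

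The order of the cyclins differed between control and knockdown libraries. Since each read is 1 transcript end, CCNB1 and CCNB2 can be set against each other within a library without a correction for length, and depth and scaling cancel. The CCNB1 level over the CCNB2 level was 0.873 and 0.811 in the siCTRL libraries, 1.92 and 1.88 with siSAM68, and 1.83 and 2.11 with siXRN2. CCNB2 was thus the more abundant cyclin in both control libraries, and CCNB1 in all 4 knockdown libraries, with no overlap. The control libraries had a mean ratio of 0.842 ± 0.0437 (SD, n = 2), those of siSAM68 1.90 ± 0.0302 and those of siXRN2 1.97 ± 0.196, which is 2.26-fold and 2.34-fold the control ratio. With 2 libraries against 2, the exact two-sided permutation test gave p = 0.333 for either knockdown, the smallest it can give. The levels behind these ratios differ in their calls: after siSAM68 CCNB1 rose with CCNB2 not called, and after siXRN2 CCNB1 rose and CCNB2 fell. CCNB2 over each of BIRC5, KIF20A and NUSAP1 was also lower in every knockdown library than in either control, at 0.304 to 0.506 times the control mean, with the same smallest p. Of the 10 ratios among the 5 genes, 6 had siSAM68 libraries that did not overlap the controls and 4 had such siXRN2 libraries, all 4 of the latter with CCNB2 in the ratio. The siSAM68 ratios without CCNB2 were CCNB1 over BIRC5, 1.14-fold the control mean, and BIRC5 over KIF20A, 0.601 times it. The share of such ratios over all pairs of genes was not computed, so these counts are a description only.

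**Figure D2:**
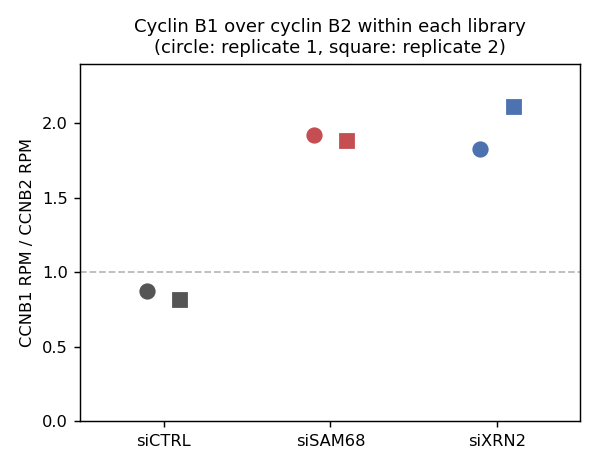
CCNB1 RPM over CCNB2 RPM within each library (linear axis from 0; circle, replicate 1; square, replicate 2; the dashed line marks equal levels). The siCTRL libraries lie at 0.811 and 0.873, and the 4 knockdown libraries between 1.83 and 2.11.

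BIRC5, the passenger subunit, had a lower mean over the 6 libraries (179 RPM) than CCNB1, CCNB2 and NUSAP1. BIRC5 (gene ID 332) stood at 110 and 142 RPM in siCTRL (79 and 187 reads), 188 and 251 RPM in siSAM68, and 151 and 233 RPM in siXRN2. Both knockdowns lay above the controls and overlapped each other. The log2 change was 0.79 after siSAM68 (SE 0.24, 95% interval 0.28 to 1.31, limma adjusted p = 0.0140) and 0.58 after siXRN2 (SE 0.24, 0.07 to 1.09, limma adjusted p = 0.0736). The call after siSAM68 was lost without siCTRL replicate 1 (0.61, limma adjusted p = 0.128) or siSAM68 replicate 2 (0.59, limma adjusted p = 0.139). The value after siXRN2 also rested on single libraries: it was 0.27 without siXRN2 replicate 2 (limma adjusted p = 0.379), 0.39 without siCTRL replicate 1 (limma adjusted p = 0.376), and 0.89, past the threshold, without siXRN2 replicate 1 (limma adjusted p = 7.25e-04).

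KIF20A, the midzone kinesin, was the rarest of the 5 and had few control reads. KIF20A (gene ID 10112) stood at 8.20 and 16.7 RPM in siCTRL, on 6 and 22 reads, at 28.4 and 38.4 RPM in siSAM68 (55 and 87 reads) and at 19.1 and 23.4 RPM in siXRN2 (33 and 108 reads). Its siSAM68 libraries were the highest, with no overlap between any of the groups. The log2 change was 1.42 after siSAM68 (SE 0.36, 95% interval 0.64 to 2.19, limma adjusted p = 0.00776) and 0.79 after siXRN2 (SE 0.36, 0.02 to 1.57, limma adjusted p = 0.101). Without siCTRL replicate 1, its shallowest library, the change after siSAM68 was 0.94 (limma adjusted p = 0.0627), and without siSAM68 replicate 2 it was 1.20 (limma adjusted p = 0.0703). The value after siXRN2 was 0.32 without siCTRL replicate 1 (limma adjusted p = 0.517) and 1.27, past the threshold, without siCTRL replicate 2 (limma adjusted p = 0.0346).

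NUSAP1, the microtubule binder, rose in both knockdowns. NUSAP1 (gene ID 51203) stood at 181 and 148 RPM in siCTRL (130 and 195 reads), 265 and 317 RPM in siSAM68, and 225 and 328 RPM in siXRN2. The knockdown groups overlapped each other and lay above both controls. The log2 change was 0.82 after siSAM68 (SE 0.22, 95% interval 0.36 to 1.28, limma adjusted p = 0.00822) and 0.73 after siXRN2 (SE 0.22, 0.27 to 1.19, limma adjusted p = 0.0225). The siSAM68 call was lost without siCTRL replicate 2 (limma adjusted p = 0.0615) and without siSAM68 replicate 2 (limma adjusted p = 0.0790). The siXRN2 call was lost when any 1 of the control libraries was left out and without siXRN2 replicate 2 (limma adjusted p up to 0.129).

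Set directly against each other, the knockdowns gave no call among the 5 genes, and 0.155% of all genes were called (3 of 1938, with 444 at an unadjusted p under 0.05). The siSAM68 and siXRN2 libraries did not overlap in 3 of the 5 genes, CCNB1, CCNB2 and KIF20A, as in 60.0% of all genes. CCNB1 was higher in siSAM68 than in siXRN2 by log2 0.45 (95% interval 0.07 to 0.84, limma adjusted p = 0.157) and CCNB2 by 0.50 (0.08 to 0.92, limma adjusted p = 0.157), and these 2 genes passed at the unadjusted level. Without siXRN2 replicate 1 the CCNB2 difference was called (0.65, limma adjusted p = 0.0168). KIF20A differed by 0.62 (-0.15 to 1.40), BIRC5 by 0.21 (-0.30 to 0.73) and NUSAP1 by 0.09 (-0.36 to 0.55), with limma adjusted p-values of 0.311, 0.607 and 0.810. These intervals leave differences of more than 1 log2 unit possible for KIF20A.

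In site choice, 1 change among the 9 sites was called, in BIRC5. Its 3 listed sites lie on the plus strand of chromosome 17 (hg19), at 76220780, 76221432 and 76221716, which is 652 and then 284 bases apart. The table types them M, M and L, read here as middle, middle and last sites of a 3' UTR (F is the first), and gives the signal AATAAA, the canonical polyadenylation signal, at each. Usage is the percent of the gene's reads in a library that end at a site. The most upstream listed site, 76220780, took 51.9% and 54.6% of BIRC5 reads in the controls. It took 77.5% and 78.6% with siSAM68, and 70.5% and 66.7% with siXRN2. The groups did not overlap, and siXRN2 lay between siCTRL and siSAM68. Exact 95% binomial intervals, which cover counting error only, were 40.4 to 63.3% and 47.1 to 61.8% in siCTRL (41 of 79 and 102 of 187 reads). They were 72.8 to 81.7% in siSAM68 replicate 1 (282 of 364 reads) and 63.8 to 69.5% in siXRN2 replicate 2 (719 of 1078 reads).

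The rise of the upstream BIRC5 site after siSAM68 was called, at log2 0.54 on the percent + 1 scale (SE 0.07, 95% interval 0.35 to 0.73, limma adjusted p = 0.0237). It was the 1 call among the 9 sites, where 14.6% of all sites tested were called (8.68% higher, 5.96% lower). After siXRN2 the change was 0.36 (0.17 to 0.55, limma adjusted p = 0.0593), and 0 of the 9 sites were called, against 5.19% of all sites (3.79% higher, 1.4% lower); 4 of the 9 had an unadjusted p under 0.05. The call after siSAM68 was lost without siCTRL replicate 1, where the log2 change was 0.51. It was also lost without replicate 1 or 2 of siSAM68, at 0.55 and 0.53. These fits leave 1 library in a group, and the loss in the siSAM68 fits was not particular to this site. The middle site, 76221432, stood at 26.6% and 29.4% in siCTRL, 13.7% and 11.1% with siSAM68, and 18.0% and 18.7% with siXRN2 (log2 -1.12 and -0.58, limma adjusted p = 0.0570 and 0.181). The last site, 76221716, stood at 7.59% and 8.02% in siCTRL, 2.75% and 2.11% with siSAM68, and 3.45% and 4.45% with siXRN2 (limma adjusted p = 0.0696 and 0.184), on 6 to 48 reads. Both downstream sites were lower in every knockdown library than in either control, which usage shares of 1 gene partly fix, since they sum to a common total. The reads of BIRC5 outside the listed sites were 6.04 to 13.9% of the gene. Among reads at the listed sites, the mean end lay 284 and 290 bases past the upstream site in siCTRL, 123 and 100 bases in siSAM68, and 163 and 182 bases in siXRN2.

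**Figure D3:**
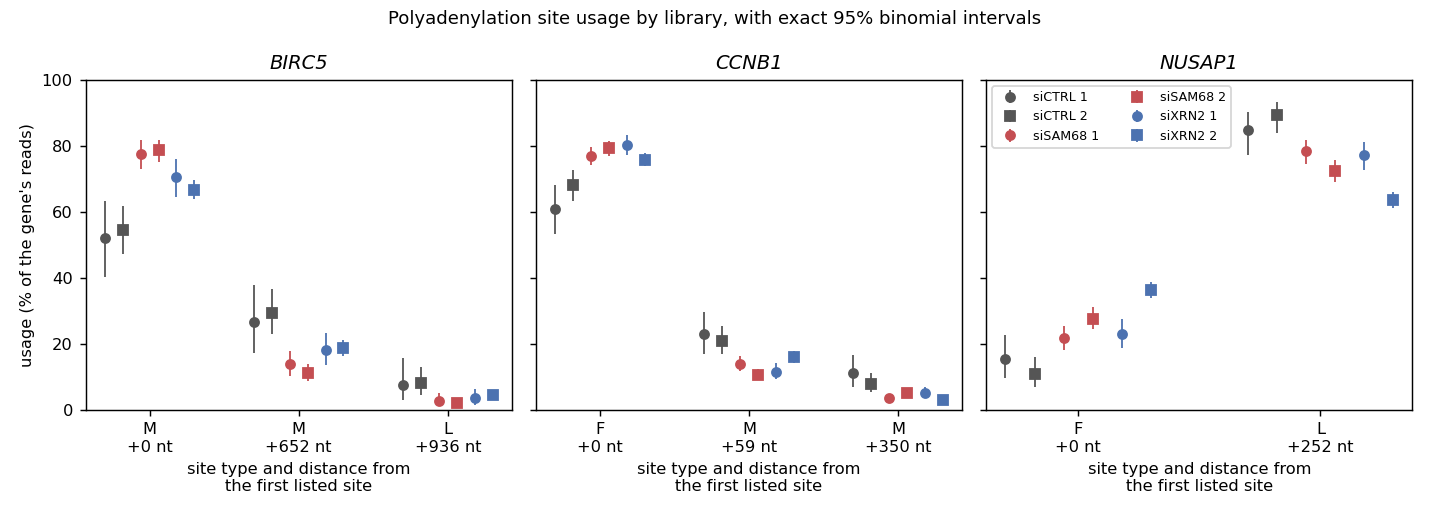
Usage of the listed sites of BIRC5, CCNB1 and NUSAP1 in each library, as percent of the gene's reads, with exact 95% binomial intervals; sites are ordered by distance in bases from the first listed site, with their type code. In each gene the most upstream site lies higher in the 4 knockdown libraries than in the siCTRL libraries, as for BIRC5 at 66.7 to 78.6% against 51.9 and 54.6%.

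CCNB1 and NUSAP1 had upstream sites that were also higher in the knockdown libraries, without a call. Over all 9 sites, siCTRL did not overlap siSAM68 in 8 and siXRN2 in 8, against 76.1% and 71.0% of all sites. CCNB1 has 3 listed sites on chromosome 5 (hg19, plus strand): a first site at 68473524 and a middle site at 68473583, both with AATAAA, and a middle site at 68473874 with another signal. The first site took 60.9% and 68.1% of CCNB1 reads in siCTRL, 77.0% and 79.3% with siSAM68, and 80.3% and 75.8% with siXRN2, all 4 knockdown libraries above both controls (log2 0.28 and 0.27, limma adjusted p = 0.0651 and 0.0907). Without siCTRL replicate 2 the siSAM68 value reached the threshold (0.35, limma adjusted p = 0.0500 after rounding). The site 59 bases further stood at 22.9% and 20.9% in siCTRL, 13.8% and 10.5% with siSAM68, and 11.4% and 15.9% with siXRN2. The third stood at 11.2% and 7.85%, 3.53% and 5.22%, and 5.01% and 3.03% in the same order.

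NUSAP1 has a first site at 41672992 and a last site at 41673244 on chromosome 15 (hg19, plus strand), 252 bases apart and both with AATAAA, which hold all of its reads. Unlike BIRC5 and CCNB1, NUSAP1 mostly used its last site. The first site took 15.4% and 10.8% of reads in siCTRL, 21.6% and 27.6% with siSAM68, and 22.9% and 36.4% with siXRN2. The groups did not overlap with siCTRL, and the log2 changes were 0.87 (95% interval -0.08 to 1.83, limma adjusted p = 0.122) and 1.11 (0.15 to 2.06, limma adjusted p = 0.108). KIF20A has 1 listed site, at 137523350 on chromosome 5 (hg19, plus strand; type M, signal ATTAAA). It took 50.0% (3 of 6 reads) and 90.9% of reads in siCTRL, 87.3% and 89.7% with siSAM68, and 87.9% and 86.1% with siXRN2, with overlapping groups. Its log2 differences of 0.39 and 0.36 turned to -0.039 and -0.0629 without siCTRL replicate 1, and without siCTRL replicate 2 they were 0.81 and 0.79 and were called (limma adjusted p = 0.0197 and 0.0203). The last site of CDC23, an anaphase-promoting complex subunit on the opposite strand, is listed 11 bases away at 137523339. The use of strand in the counting is not stated in the sources used here, so the KIF20A values could include reads of CDC23.

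In the site table the mitotic lists hold 41 further tested sites of 26 genes, of which 4 were called higher and 3 lower after siSAM68, and 2 higher and none lower after siXRN2. Of all sites, 14.6% and 5.19% were called, so these counts lie near the background. Among them the sites of NUF2 (a kinetochore protein), KIFC1 (a spindle kinesin) and SKA3 (a kinetochore protein) are listed at 0 in both controls, and the last site of SMC2 has a mean of 0.425% in siSAM68. Such sites passed the filter on low usage only through the group where they are high, so their calls carry no weight. No share of all sites was computed with both groups at 1% or more. With that filter, 35 sites remain after siSAM68, with 1 higher and 2 lower, and 37 after siXRN2, with none called. The 3 sites are the middle site of PBK, a mitotic kinase (34.2% and 40.4% in siCTRL, 73.0% and 74.8% in siSAM68; limma adjusted p = 0.0294), the last site of PBK and the last site of CDC23, which went from 84.2% to 70.4% in the mean.

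As a description over the site table, 1070 genes have several listed sites of types F, M and L and values in every library. In BIRC5, CCNB1 and NUSAP1, the 3 of these among the 5 genes, the most upstream site had a higher share of listed-site reads in both siSAM68 libraries than in either control. The same held in both siXRN2 libraries. Over the 1070 genes this was so for 37.9% after siSAM68 and 34.4% after siXRN2, and the share was lower in both libraries for 46.3% and 43.5%. Of 9 other listed mitotic genes of this kind, 5 were above and 3 below after siSAM68, and 5 above and 2 below after siXRN2. Those above include NUF2 in both comparisons, whose upstream site is at 0 in both controls and carries no weight. They also include KIAA0101 in both comparisons, a replication-linked gene. The siSAM68 and siXRN2 libraries did not overlap at 3 of the 9 sites, all of BIRC5, against 52.2% of all sites. In no site of the 5 genes did siSAM68 and siXRN2 differ at an unadjusted p under 0.05, and 0% of all 4864 sites tested were called in that comparison, with 642 at an unadjusted p under 0.05.

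Level and site choice can be joined as the RPM of a gene times the usage of a site, which gives the RNA ending there. For BIRC5 the upstream site stood at 67.3 ± 14.6 RPM (SD, n = 2) with siCTRL, 172 ± 36.6 RPM with siSAM68 and 131 ± 34.6 RPM with siXRN2. The gain of 104 RPM after siSAM68 is set beside a gain of 93.8 RPM for the whole gene. The middle BIRC5 site was at 35.5 ± 8.94, 26.8 ± 1.40 and 35.3 ± 11.5 RPM and the last at 9.87 ± 2.17, 5.24 ± 0.0933 and 7.77 ± 3.64 RPM, so the mean RNA at the downstream sites was not above that of siCTRL. For CCNB1 the first site went from 175 ± 32.7 to 419 ± 51.6 RPM in siSAM68 and 305 ± 26.9 RPM in siXRN2, gains of 245 and 130 RPM beside 267 and 121 RPM for the gene. Its second site stood at 58.9 ± 2.70, 64.6 ± 5.83 and 53.1 ± 9.75 RPM. NUSAP1 differed, as RNA at both its sites was higher in the knockdowns. Its first site was at 21.9 ± 8.36, 72.4 ± 21.3 and 85.4 ± 48.1 RPM, and its last at 143 ± 14.5, 219 ± 15.6 and 191 ± 25.2 RPM. These products have no test of their own.

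**Figure D4:**
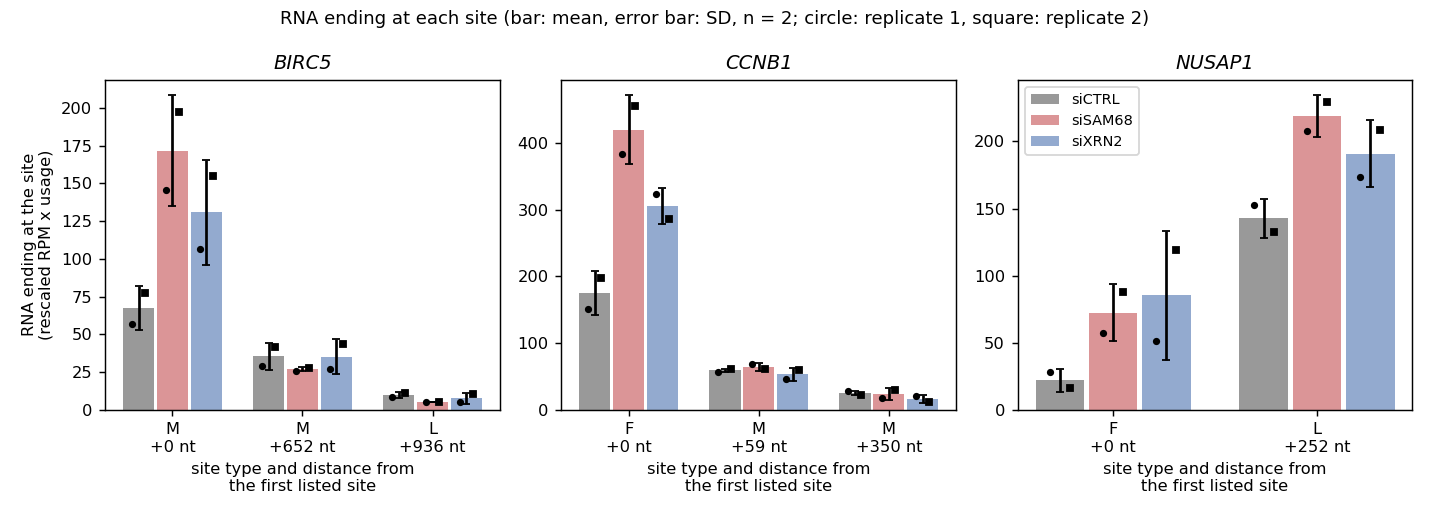
RNA ending at each listed site of BIRC5, CCNB1 and NUSAP1 (gene RPM times site usage; bars, group means; error bars, SD of n = 2; circle, replicate 1; square, replicate 2; linear axes from 0). For BIRC5 and CCNB1 the difference between groups sits at the most upstream site (67.3 against 172 RPM and 175 against 419 RPM in siCTRL and siSAM68), while for NUSAP1 both sites are higher in siSAM68.

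Other genes of mitosis moved in both directions after siSAM68. Of 125 genes in 7 lists of mitotic roles, 28 are in the gene table, and 23 of these are other than the 5 genes. The replication-linked KIAA0101 is counted among the 23. After siSAM68, 8 of the 23 rose, 5 fell and 10 were not called (8 rose and 7 fell with median-of-ratios scaling), where 35.3% of all genes rose and 23.4% fell, so the count lies near the background. Their median log2 change was 0.13, against 0.16 over all genes. The midzone bundler PRC1 rose by log2 2.24, on 1 and 4 control reads, while the cohesin protease ESPL1 (separase) had 0 and 2 control reads and passed the filter of 1 RPM only through the knockdown groups. Its call carries no weight, and without it 7 of 22 genes rose. The spindle protein HMMR (1.25), the kinetochore protein KNTC1 (1.28), the condensin subunit SMC2 (1.09), the replication-linked KIAA0101 (1.05), the tubulin TUBA1B (0.84) and the anaphase-promoting complex subunit ANAPC11 (0.69) also rose. TUBA1B has near-identical copies, and its reads are uncertain for that reason. The transcription factor MYBL2 (-0.55), the centromere proteins CENPM (-0.94) and HJURP (-0.64), the kinesin KIF22 (-0.55) and ANAPC1 (-1.54) fell. ANAPC1 had 7 to 13 reads in each library compared. All 13 calls, ESPL1 included, were kept under 3 other scalings, and PRC1, HMMR and KIAA0101 kept theirs in all 6 fits that left out a library.

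Without siCTRL replicate 1, 5 of the 23 were called after siSAM68, as were 6 without siSAM68 replicate 1 and 5 without siSAM68 replicate 2, in each case with none lower. Over all 1938 genes these fits called 441, 487 and 344, of which 119, 154 and 106 were lower. The same fits called 2, 4 and 1 of the 5 genes. The counts of the 23 in these fits include ESPL1, whose call carries no weight. After siXRN2, 7 of the 23 rose, none fell (5 rose and 1 fell with median-of-ratios scaling) and 16 were not called, where 21.2% of all genes rose and 12.1% fell. Their median was 0.43, against 0.08 over all genes. Besides ESPL1, without which 6 of 22 rose, they were PRC1 (1.73), SMC2 (0.78), KIAA0101 (0.75), TUBA1B (0.70), CDC16 (0.67) and ANAPC11 (0.67). Both comparisons share the control libraries. The call of CDC16 was lost under all 3 other scalings and that of SMC2 under median-of-ratios scaling. Without siCTRL replicate 1, only ESPL1 and PRC1 of the 23 stayed called after siXRN2. ESPL1 carries no weight and PRC1 rests on 1 and 4 control reads. Among the 5 genes only CCNB2 stayed called (log2 -0.85), and most calls over all genes were lost in that fit as well.

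The remaining listed genes were not called in either knockdown. After siSAM68 and siXRN2, in that order, the log2 differences were 0.45 and 0.63 for the phosphatase CDC25B, which activates CDK1, and 0.07 and 0.50 for PKMYT1, a kinase that restrains it. For the spindle proteins they were 0.29 and 0.12 for TPX2, -0.39 and -0.25 for NUMA1, and 0.02 and 0.44 for TUBG1. CENPN was at -0.30 and 0.03, the checkpoint protein BUB3 at -0.45 and -0.41, SKA1 at 0.13 and 0.40, and the proliferation marker MKI67 at -0.05 and -0.25. NUMA1 was called lower after siSAM68 under all 3 other scalings (-0.42 to -0.55), and BUB3 under median-of-ratios scaling. The sign turned under another scaling for PKMYT1, TUBG1 and SKA1 after siSAM68 and for CENPN after siXRN2. CCNB1 was called higher in both comparisons, as was SMC2, while HMMR was called after siSAM68 alone. CCNB2 lay below 0 in both, as did BUB3, HJURP, MYBL2, NUMA1, CENPM, KIF22, ANAPC1 and MKI67. Of these only CCNB2 was called lower after siXRN2.

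**Figure D5:**
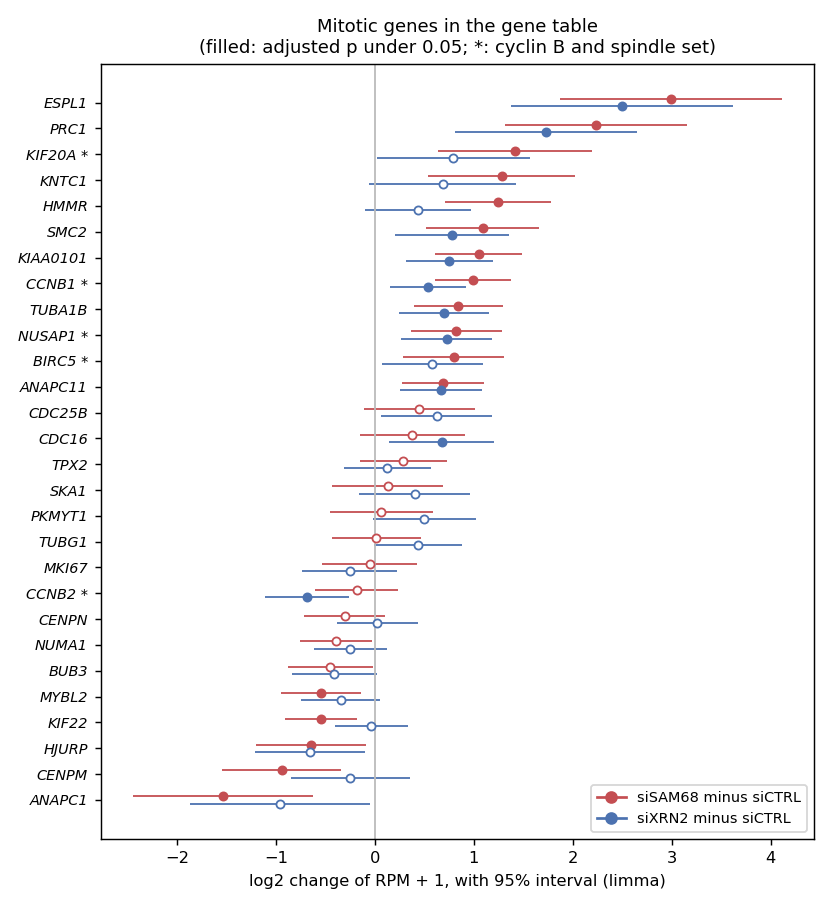
Log2 change of RPM + 1 with 95% intervals (limma) for the 28 listed mitotic genes, siSAM68 in red and siXRN2 in blue, filled where the adjusted p is under 0.05; asterisks mark the 5 genes. CCNB1, BIRC5, KIF20A and NUSAP1 lie to the right of 0 in both comparisons (0.99, 0.79, 1.42 and 0.82 after siSAM68), and CCNB2 lies to the left (-0.18 and -0.68).

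The genes nearest in pattern to the 5 were not among the 23 other listed mitotic genes. As those 23 are few of the 1944 genes, their absence says little. Likeness was the root mean square difference of centred log2(RPM + 1) over the 6 libraries, and the 2 nearest genes were taken. They were MED13 (0.0492) and C8orf59 (0.0642) for CCNB1, RNF138 (0.0471) and HDAC2 (0.0658) for CCNB2, and H2AFV (0.0860) and MAPKAP1 (0.0939) for BIRC5. For KIF20A they were KDM1B (0.109) and ETFDH (0.129), and for NUSAP1 KDM2B (0.0518) and RUVBL1 (0.0781). Among the 5 genes the closest pair was BIRC5 and NUSAP1, at 0.206, with 84 other genes nearer to BIRC5 and 100 nearer to NUSAP1. CCNB2 stood farthest from the rest: its nearest partner was CCNB1, at 0.568, and 1231 genes were nearer to it.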

How the data were processed

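Polyadenylated RNA 3' ends of 6 libraries were read from 2 deposited tables. Per the submitters' processing notes, cutadapt and Bowtie2 were used with the build hg19; for their versions, the annotation and the filters, nothing is stated. The authors deposited RPM per gene and library with 1 decimal, scaled, as the steps of the values show, to the summed reads of a group's libraries, and site usage as a percent of a gene's reads. The authors' deposited score and log2 ratio columns are not used in the results. Column suffixes 2 and 4 were matched to replicates 1 and 2 through the sample descriptions. Site type codes are not defined in the sources and were read from their order along the strand.

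Each library's RPM was rescaled to the listed total of its group. Whole reads were recovered within the rounding of 0.05 RPM and served only for depth and for exact (Clopper-Pearson) 95% intervals; reads may include PCR copies. RPM is not a count, so no count test was run. limma 3.58.1 in R 4.3.3, with a mean-variance trend and the 3 groups in 1 fit, tested log2(RPM + 1) where the mean reached 1 RPM (1938 genes, all 5 included). It tested log2(percent + 1) for 4862, 4860 and 4864 sites in the 3 comparisons, with a mean usage of at least 1%, all 9 sites included. Fold changes on these scales understate changes of low values. P-values were adjusted (Benjamini-Hochberg) over all listed genes or sites and can be too small if the tables were selected on these libraries, which is not stated. Scripts were tested on simulated data.

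The genes, the 7 mitotic lists and the tests were chosen with earlier results of these data known. The named genes are the 5 genes, every listed gene of the mitotic lists, the 2 genes nearest in pattern to each, and KHDRBS1. Alternatives were other pseudocounts, filters and scalings, the compared groups alone, a replicate block and each library left out. Ratios were compared by exact permutation tests (scipy 1.17.1), and figures drawn with matplotlib 3.10.9. A further LNCaP marker is not reported here.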

Additional observations from a re-analysis of the deposited data

How the results depend on the processing

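For the 5 genes, 202 of 225 alternative values kept their direction and their side of the threshold, 16 lost a call, 4 gained one and 3 changed sign; for the 9 sites these numbers were 330, 4, 4 and 10 of 348. Every change of sign came from leaving out a library. Over the leave-outs siSAM68 minus siXRN2 ranged from -0.10 to 0.53 for BIRC5 and from -0.18 to 0.37 for NUSAP1 expression, from -0.0382 to 0.0432, -0.37 to 0.0713 and -0.18 to 0.40 for the CCNB1 sites in order, from -0.55 to 0.0911 for the first NUSAP1 site and -0.0334 to 0.24 for the last, and the KIF20A site ranged from -0.039 to 0.81 after siSAM68 and from -0.0629 to 0.79 after siXRN2. After siXRN2, BIRC5 expression ranged from 0.27 to 0.89 over the leave-outs and KIF20A expression from 0.32 to 1.27. On the percent scale the middle BIRC5 site passed after siSAM68 (-15.6 points, limma adjusted p = 0.0495). The last BIRC5 site has no value with a mean usage of at least 5%. Over all genes, leaving out a library gave 344 to 1245 calls after siSAM68, 199 to 714 after siXRN2 and 1 to 338 between the knockdowns; over all sites it gave 0 to 775, 0 to 386 and 0. Between the knockdowns, genes called numbered 1 with a pseudocount of 0.5 and 9 with 5, 9 with a mean of at least 10 RPM, 7 with upper-quartile and 30 with median-of-ratios scaling, and 1 with the compared groups alone; sites called numbered 3 with a pseudocount of 5% and 2 on the percent scale. With the compared groups alone, sites called were 450 after siSAM68 and 0 after siXRN2, and the percent scale gave 24 after siXRN2. Median-of-ratios scaling, which moves the median log2 change of all genes from 0.16 to 0.0027 after siSAM68, split the calls into 527 higher and 546 lower, against 685 and 454. Replicates with the same number deviated together little or not at all. Across genes the correlations were 0.0763, 0.0023 and 0.181, and across sites 0.0401, 0.0159 and 0.0040. Neither genes nor sites are independent. These values give little sign that the numbers pair the libraries, and they cannot exclude a pairing. A replicate block gave 1142, 653 and 1 genes called in the 3 comparisons and 113, 0 and 0 sites; with it BIRC5 expression passed after siXRN2 (limma adjusted p = 0.0297), and the upstream BIRC5 site after siSAM68 did not (0.0621). The causes were not tested. Depth is thin for KIF20A, with 6 and 22 control reads.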
